A study of Mus musculus with 4 samples.

Results

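The miRNAs described here are those encoded within the Hox gene clusters of the mouse, miR-10a, miR-10b, miR-196a and miR-196b. Every name with one of these 4 stems was taken from the deposited read-count table, all arms and copies included, and a name not listed for a library was counted as 0 reads. There were 8 such names among 816 mouse miRNAs, and 7 of the 8 had enough reads to be tested. Small RNAs had been sequenced from 2 basal and 2 luminal libraries of sorted prostate cells, from wild-type (WT) C57Bl/6 male mice aged 10 weeks. Both groups were Sca-1 positive and lineage negative by flow sorting, basal cells with high and luminal cells with low CD49f, an integrin of cells that sit on the basement membrane. The cells had been freed with collagenase and trypsin. Luminal cells are often sorted from the fraction low in Sca-1, so luminal here means only the gate stated in the labels. Nothing in the labels ties a library to its own animal or pool. The p-values therefore cover only the spread among these 4 libraries, which may be technical.

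Hox genes are transcription factors that give cells their position along the body axis, and they stand in 4 clusters in the genome. The miR-10 genes lie beside the Hox4 genes and the miR-196 genes beside the Hox9 genes, and they are transcribed from the same strand as the neighbouring Hox genes. A miRNA guides the silencing machinery to messenger RNAs that pair with its seed. In mouse embryos miR-196 is known to direct cleavage of the messenger RNA of Hoxb8, and in human cells miR-10 is known to repress HOXD10, so these miRNAs act on Hox genes as well as lying among them. The posterior Hox genes, at the end of the clusters where miR-196 lies, are known for their part in forming the prostate.

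The mature sequences are shown because the results turn on how alike they are. They are the RefSeq sequences on GRCm38.p6, all 9 matched by name, with the seed (bases 2 to 8 from the 5′ end) in capitals. The first group holds the miR-10 arms from the 5′ side of the hairpin, which share the seed ACCCUGU.
miR-10a-5p: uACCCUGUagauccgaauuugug
miR-10b-5p: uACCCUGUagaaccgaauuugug
The second group holds the miR-196 arms from that side, which share the seed AGGUAGU.
miR-196a-5p: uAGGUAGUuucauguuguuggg
miR-196b-5p: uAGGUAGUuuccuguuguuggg
The third group holds the arms from the 3′ side, no pair of which shares a seed.
miR-10a-3p: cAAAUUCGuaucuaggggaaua
miR-10b-3p: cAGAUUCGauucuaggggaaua
miR-196a-1-3p: cAACGACAucaaaccaccugau
miR-196a-2-3p: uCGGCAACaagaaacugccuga
miR-196b-3p: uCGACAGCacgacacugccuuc

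Within each pair of 5p arms the copies differ at 1 base outside the seed, U12A between miR-10a-5p and miR-10b-5p and A12C between miR-196a-5p and miR-196b-5p, with positions counted from the 5′ end. Whether a read with a sequencing error there went to the right copy depends on the mismatches allowed (not given in the sources used here). Values of single copies are therefore less certain than their sums. The 3p arms of miR-10a and miR-10b differ at 3 of 22 bases. Those of miR-196a-1 and miR-196a-2 differ at 17 of 22, so the 3p arm tells the 2 genes of miR-196a apart, while their 5p arm is the same. The hairpins of these 2 genes are shown with both mature arms in capitals.
Mir196a-1: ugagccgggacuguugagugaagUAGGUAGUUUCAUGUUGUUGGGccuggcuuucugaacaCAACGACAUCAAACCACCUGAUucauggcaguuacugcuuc
Mir196a-2: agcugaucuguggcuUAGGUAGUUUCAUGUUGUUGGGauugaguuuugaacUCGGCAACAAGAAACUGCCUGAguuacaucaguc

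The 5 genes lie in all 4 Hox clusters. On GRCm38, with the GENCODE M21 annotation, Mir10a is at chr11:96317165-96317274 (plus strand), between Hoxb5 and Hoxb4 and in no other annotated gene. Mir196a-1 lies in the same cluster at chr11:96265164-96265265 (plus strand), between Hoxb13 and Hoxb9 and again in no other annotated gene. Mir10b is at chr2:74726070-74726137 (plus strand), in introns of Hoxd4 and Hoxd3. Mir196a-2 is at chr15:102973350-102973434 (plus strand), between Hoxc10 and Hoxc9 and in an annotated intron of Hoxc5. Mir196b is at chr6:52230081-52230165 (minus strand), where the annotation places an exon of Hoxa9, next to Hoxa10.

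The libraries held from 1501898 to 3278294 miRNA reads each, and the 8 names took from 0.514% to 1.03% of these. miR-205-5p, a miRNA known from basal epithelium, stood at 51995 and 80966 RPM in basal libraries and at 6691 and 4608 RPM in luminal libraries, higher in the cells labelled basal (log2 fold change 3.56, edgeR adjusted p = 0.0128). Here RPM is reads per 1000000 miRNA reads after TMM normalisation (trimmed mean of M values). miR-200c-3p, an abundant epithelial miRNA, took 22.3% and 46.9% of miRNA reads in basal replicates 1 and 2, against 68.5% and 71.6% in luminal replicates 1 and 2. Names that are no miRNA, among them the Cali entries whose nature the labels do not state, took from 29.5% to 62.4% of all listed reads. Levels of different miRNAs are shares of reads and are not corrected for how well each sequence is captured.

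None of the 7 tested members differed between basal and luminal cells at an adjusted p under 0.05, in either direction, in edgeR's quasi-likelihood test with Benjamini-Hochberg adjustment over all 345 tested miRNAs. Of all tested miRNAs, 0.58% passed as higher in basal cells and 3.77% as higher in luminal cells. At an unadjusted p under 0.05 there was 1 member, miR-196a-5p, higher in luminal cells, where 6.38% of all tested miRNAs stood higher in basal cells and 9.57% in luminal cells. DESeq2 called the same member and no other, where it called 2.03% of all tested miRNAs as higher in basal cells and 6.09% in luminal cells. By levels alone, 2 members (miR-196b-5p and miR-10a-3p) had basal levels wholly above luminal levels, where 27.2% of all tested miRNAs did. Another 2 (miR-196a-5p and miR-196a-1-3p) had basal levels wholly below luminal levels, where 24.3% did. The groups overlapped for the other 3. The median log2 fold change, basal over luminal, was 0.04 over the 7 members and -0.01 over all 345 miRNAs.

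**Figure D1:**
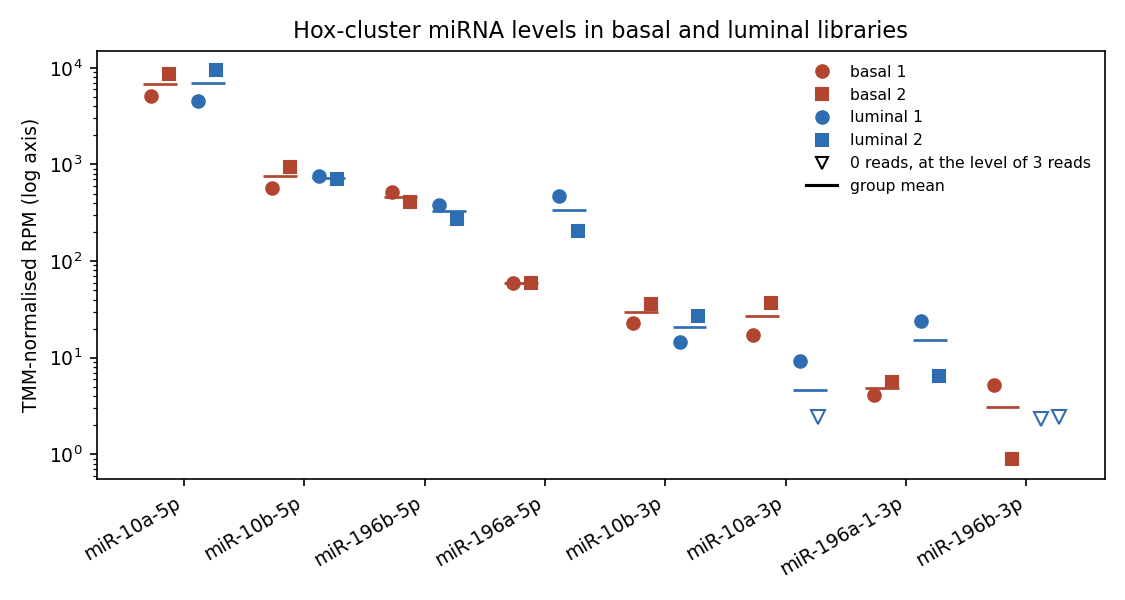
Levels of the 8 Hox-cluster miRNAs in RPM (TMM-normalised, log axis) in each of 2 basal (red) and 2 luminal (blue) libraries, with group means as lines and libraries with 0 reads drawn as open triangles at the level of 3 reads. miR-10a-5p lies between 4567 and 9439 RPM in all 4 libraries, while miR-196a-5p lies at 59.8 and 59.3 RPM in basal libraries and at 474 and 207 RPM in luminal libraries.

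miR-10a-5p, the arm of Mir10a that is loaded to repress targets in most tissues, was the most abundant member in every library and did not separate the cell types. It had 13564 and 28775 reads in basal replicates 1 and 2, and 5968 and 11606 reads in luminal replicates 1 and 2. Its levels were 5070 and 8573 RPM in basal libraries and 4567 and 9439 RPM in luminal libraries. The groups overlapped, with replicate 1 low and replicate 2 high in both. Its mean of 6821 ± 2477 RPM in basal and 7003 ± 3445 RPM in luminal libraries (n = 2 each, SD) placed it 19th among the 345 tested miRNAs in basal cells and 13th in luminal cells. The log2 fold change, basal over luminal, came to -0.04 (standard error 0.64, edgeR adjusted p = 0.983). A p that misses the threshold does not show that the levels were equal. The sign of the fold change depended on the scaling. It was 0.49 with library totals alone and 1.73 when libraries were scaled to the Cali reads, where the median of all tested miRNAs stood at 0.56 and 1.99.

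miR-10b-5p, its copy from the Hoxd cluster, was the second most abundant member and also overlapped between the groups. It had 1531 and 3133 reads in basal libraries and 993 and 864 reads in luminal libraries, or 572 and 933 RPM against 759.9 and 703 RPM. Both luminal values fell between the 2 basal values. The log2 fold change came to 0.04 (standard error 0.59, edgeR adjusted p = 0.983), and it was 0.57 with library totals alone and 1.86 when scaled to the Cali reads. The sum of both copies, which does not depend on how reads were split between them, came to 5642 and 9506 RPM in basal and 5327 and 10141 RPM in luminal libraries, and its log2 fold change came to -0.03 (standard error 0.64).

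The balance between the 2 miR-10 copies leaned to miR-10a in every library, at 8.86 and 9.18 reads of miR-10a-5p per read of miR-10b-5p in basal libraries and 6.01 and 13.4 in luminal libraries. As a share of both copies, miR-10b-5p took 10.1% (95% Wilson interval 9.67 to 10.6) and 9.82% (9.497 to 10.2) in basal replicates 1 and 2. In luminal replicates 1 and 2 it took 14.3% (13.5 to 15.1) and 6.93% (6.496 to 7.39). The basal libraries lay close together and the luminal libraries lay on either side of them, with intervals that overlapped neither each other nor the basal intervals. These intervals cover counting error only and treat each read as an independent molecule. Reads amplified by PCR are not independent, so the intervals may be too narrow.

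miR-196b-5p, the arm of the Hoxa9 neighbour Mir196b, was the most abundant miR-196 arm in basal cells. It had 1375 and 1364 reads in basal libraries and 502 and 339 reads in luminal libraries. At 514 and 406 RPM in basal and 384 and 276 RPM in luminal libraries, the basal values were above the luminal values, though basal replicate 2 and luminal replicate 1 were close. The means were 460.2 ± 76.1 RPM in basal and 329.9 ± 76.7 RPM in luminal libraries (n = 2 each, SD). The log2 fold change came to 0.48 (standard error 0.61) and did not pass (edgeR adjusted p = 0.720). It was 1.09 with library totals alone and 2.63 when scaled to the Cali reads. Calculated per 1000000 miRNA reads other than miR-200c-3p and with no TMM factor, the levels were 953 and 784 in basal and 1008 and 796 in luminal libraries, which overlap.

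miR-196a-5p, made by Mir196a-1 and Mir196a-2, had the smallest p-value of the 7 tested members. It had 160 and 199 reads in basal replicates 1 and 2, and 619 and 254 reads in luminal replicates 1 and 2, although the luminal libraries held fewer miRNA reads. Its levels were 59.8 and 59.3 RPM in basal libraries and 474 and 207 RPM in luminal libraries. The basal libraries were nearly alike, both luminal libraries were above them, and luminal replicate 1 was the highest. The means were 59.5 ± 0.369 RPM in basal and 340.1 ± 189 RPM in luminal libraries (n = 2 each, SD). The log2 fold change, basal over luminal, came to -2.51 (standard error 0.75), a 5.71-fold lower level in basal libraries. It ranked 19th of 345 by p-value and missed the threshold (edgeR adjusted p = 0.0651).

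The call of miR-196a-5p depended on the tool and on which libraries were used, and no scaling gave a call. The fitted value stayed below 0 in all 14 alternatives run, counting the fit of summed copies (-0.37), which is not a value of miR-196a-5p alone. DESeq2 called it (log2 fold change -2.53, adjusted p = 0.00847). It was also called without luminal replicate 2 (log2 fold change -2.94, edgeR adjusted p = 0.0209), a run in which 5.29% of tested miRNAs were called higher in luminal cells. Without luminal replicate 1 the log2 fold change was -1.73 (edgeR adjusted p = 0.193). It was -1.93 with library totals alone (adjusted p = 0.219) and -0.45 when scaled to the Cali reads (adjusted p = 0.839). These scalings put the median of all tested miRNAs at 0.56 and 1.99, so miR-196a-5p was below that median in each.

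The split of miR-196 5p reads between the a and b copies does not depend on any scaling, and its values did not overlap between the groups. This comparison was chosen after the values were seen. miR-196a-5p took 10.4% (95% Wilson interval 8.99 to 12.1) and 12.7% (11.2 to 14.5) of the reads of both copies in basal replicates 1 and 2. In luminal replicates 1 and 2 it took 55.2% (52.3 to 58.1) and 42.8% (38.9 to 46.8). So miR-196b-5p had 8.59 and 6.85 reads per read of miR-196a-5p in basal libraries, against 0.811 and 1.33 in luminal libraries. The mean share was 11.6% ± 1.63 in basal and 49.0% ± 8.76 in luminal libraries (n = 2 each, SD), a difference of -37.4 percentage points, basal minus luminal, and of -2.88 in log2 odds. The gap between the groups was wider than the spread within either. An exact 2-sided permutation test gave p = 0.333, the smallest value that 2 libraries against 2 allow. The fitted log2 fold change of miR-196a-5p minus that of miR-196b-5p stayed between -3.07 and -2.99 across TMM, RLE, upper-quartile and total scaling, scaling to the Cali reads, and the fit without miR-200c-3p. A scaling factor acts on both copies in a library alike, so this narrow range follows from the measure and is no separate check.

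**Figure D2:**
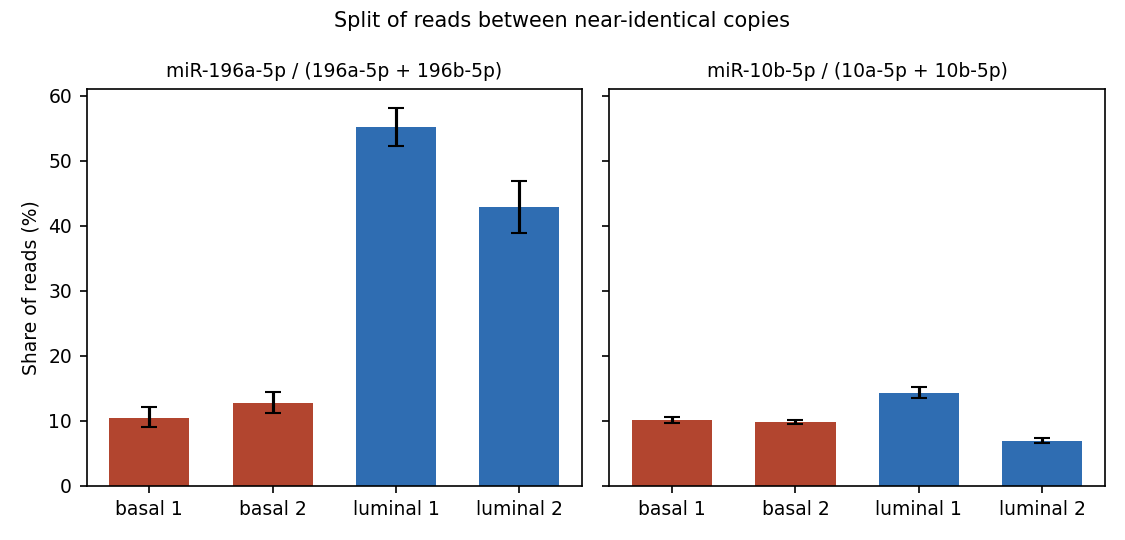
Share of reads (%) held by miR-196a-5p among both miR-196 copies (left) and by miR-10b-5p among both miR-10 copies (right) in the 2 basal (red) and 2 luminal (blue) libraries, with 95% Wilson intervals. The miR-196a-5p share is 10.4% and 12.7% in basal libraries and 55.2% and 42.8% in luminal libraries, while the miR-10b-5p share stays between 6.93% and 14.3% with no order by cell type.

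With both copies summed, the miR-196 levels of the groups overlapped. The sum was 574 and 466 RPM in basal and 858 and 482 RPM in luminal libraries, and luminal replicate 2 lay between the basal libraries. Its log2 fold change came to -0.37 (standard error 0.61). Set against miR-10, the miR-196 5p reads made up 9.23% and 4.67% of the 5p reads of all 4 stems in basal libraries and 13.9% and 4.54% in luminal libraries. That share followed no order by cell type. In each group replicate 1 had the higher share, a measured fact whose source was not tested.

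The 3p arms were minor in every library, but not equally so. miR-10a-3p made up 0.338% and 0.429% of the reads of both miR-10a arms in basal libraries. It made up 0.201% in luminal replicate 1 and none of 11606 reads in luminal replicate 2, which allows a share of up to 0.0258%. miR-10b-3p made up 3.83% and 3.72% of its arms' reads in basal libraries and 1.88% and 3.68% in luminal libraries. In each library the 95% Wilson interval of the miR-10b-3p share lay above that of the miR-10a-3p share, so the 3p arm took a larger share of miR-10b reads than of miR-10a reads. The miR-10b-3p share was below the basal values in luminal replicate 1, and in luminal replicate 2 it lay within their intervals.

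miR-10a-3p, the minor arm of Mir10a, was read mainly in basal libraries. It had 46 and 124 reads in basal libraries and 12 and 0 reads in luminal libraries, or 17.2 and 36.9 RPM against 9.18 and 0 RPM. The groups did not overlap. The fitted log2 fold change came to 2.54 (standard error 1.60) and did not pass (edgeR adjusted p = 0.430). It was called without luminal replicate 1 (edgeR adjusted p = 0.00899), where 8.13% of tested miRNAs were called higher in basal cells, but the luminal side then rested on 1 library with 0 reads. Measured against a floor of 3 reads in that library, or 2.44 RPM, the basal mean was at least 11.1-fold higher. Luminal replicate 2 listed the fewest miRNAs, 445 against 547 to 573 in the others. miR-10b-3p overlapped between the groups, at 22.8 and 36.0 RPM in basal and 14.5 and 26.8 RPM in luminal libraries (edgeR log2 fold change 0.51, adjusted p = 0.878).

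All reads listed for a miR-196a 3p arm carried the name of the Mir196a-1 arm. miR-196a-1-3p had 11 and 19 reads in basal libraries and 31 and 8 reads in luminal libraries, while miR-196a-2-3p was listed in no library. The listed reads add up to the total deposited with each list, so 0 reads went to that name. A count of 0 allows up to 1.62 and 0.915 per 1000000 miRNA reads in basal replicates 1 and 2, and up to 1.89 and 1.997 in luminal replicates 1 and 2. Whether the authors' search database held miR-196a-2-3p was not stated in the labels, and the share of miR-196a-5p from each gene cannot be read from these counts.

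At the level of single libraries, miR-196a-1-3p stood at 4.11 and 5.66 RPM in basal and 23.7 and 6.51 RPM in luminal libraries. Luminal replicate 1 stood apart from the other 3, and without TMM factors luminal replicate 2, at 5.33 per 1000000 miRNA reads, fell below both basal libraries, at 5.93 and 5.80. The log2 fold change came to -1.62 (standard error 1.68, edgeR adjusted p = 0.686), and 0.27 when scaled to the Cali reads. As a share of miR-196a-1-3p plus miR-196a-5p reads it made up 6.43% and 8.72% in basal libraries and 4.77% and 3.05% in luminal libraries, with Wilson intervals that overlap. miR-196b-3p had 14 and 3 reads in basal libraries and 0 in both luminal libraries and was not tested. It took 1.01% and 0.219% of its arms' reads in basal libraries, and 0 reads allow up to 0.598% and 0.885% in luminal replicates 1 and 2. These limits lie below the share in basal replicate 1 and above that in basal replicate 2, and a difference was not tested.

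**Figure D3:**
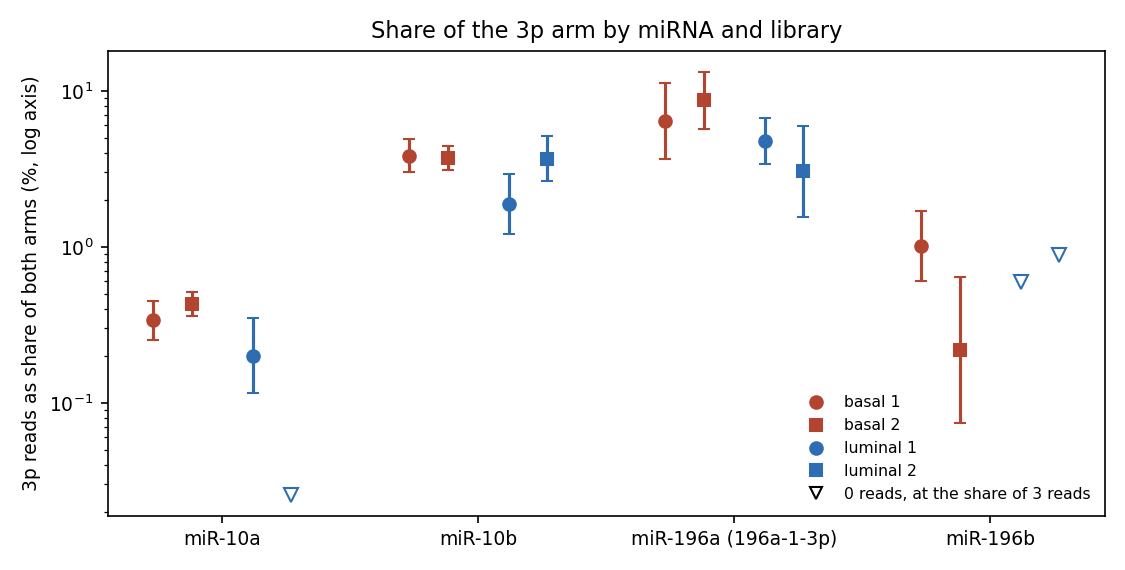
Reads of the 3p arm as a share of both arms (%, log axis) for each stem in the 2 basal (red) and 2 luminal (blue) libraries, with 95% Wilson intervals and open triangles at the share of 3 reads where none were counted. miR-10a-3p lies at or under 0.429% in all 4 libraries, while miR-10b-3p lies between 1.88% and 3.83%.

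**Figure D4:**
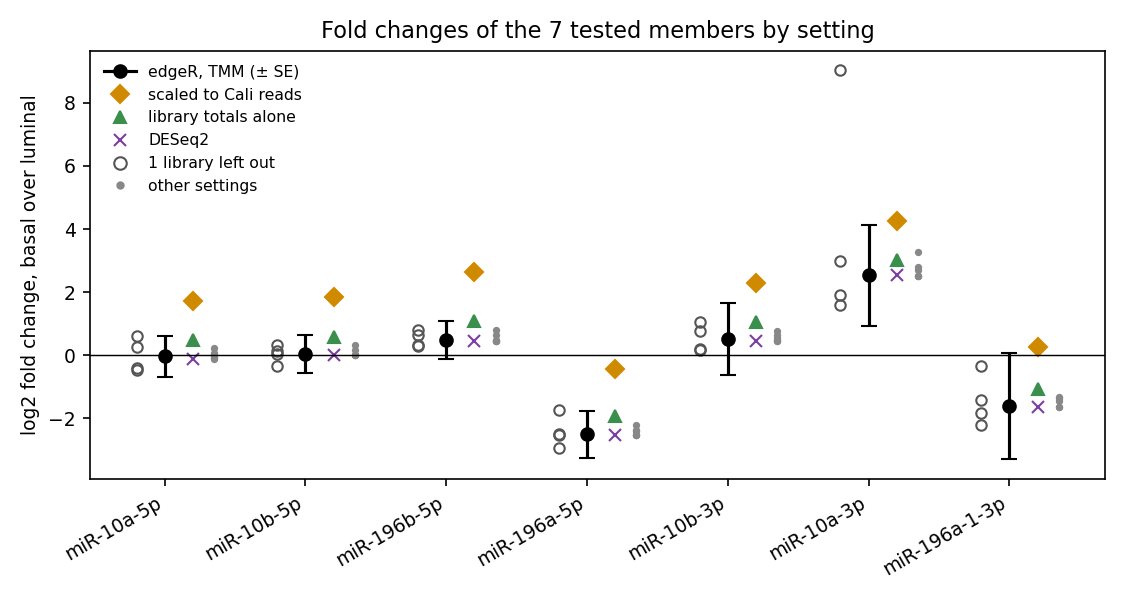
Log2 fold changes, basal over luminal, of the 7 tested members in edgeR with TMM (black, ± standard error) and in the other settings. miR-196a-5p lies below 0 in every setting drawn, from -2.94 to -0.45, while the miR-10a-5p and miR-10b-5p values lie on both sides of 0 and rise to 1.73 and 1.86 when libraries are scaled to the Cali reads.

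The miRNAs whose profile over the 4 libraries was most like each member were found by the Euclidean distance between centred log2 RPM profiles, among 171 tested miRNAs with a mean of at least 50 RPM. For miR-196a-5p the nearest was miR-143-3p, a miRNA of smooth muscle, at a distance of 0.31 where the median candidate lay at 2.87. The next were miR-148a-3p (0.79), miR-29c-3p (0.94), miR-455-3p (0.98) and miR-574-3p (1.39). miR-455-3p, miR-574-3p and miR-29c-3p were also among the 5 nearest to miR-196a-1-3p. For miR-196b-5p the nearest were miR-181d-5p (0.17) and miR-24-2-5p (0.20), for miR-10a-5p they were miR-423-3p (0.27) and miR-5099 (0.40), and for miR-10b-5p they were miR-339-5p (0.21) and miR-19a-3p (0.22). miR-10a-3p lay nearest to miR-322-3p (0.32) and then to endothelial miR-126a-5p (1.04). In luminal replicate 2 miR-10a-3p had 0 reads, and its value there was set by the prior count of 2, so its distances are less certain. miR-10b-3p lay nearest to miR-19b-3p (0.18) and miR-132-3p (0.19). These distances rest on 4 libraries and describe them.

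Some markers of other cells stood with miR-196a-5p, higher in luminal libraries. All 10 smooth muscle and fibroblast miRNAs listed were in the table, and their sum was 1654 and 2674 RPM in basal libraries against 10753 and 13663 RPM in luminal libraries. Of these 10, miR-143-3p and miR-145a-5p, the smooth muscle pair, were called higher in luminal cells (log2 fold changes -2.23 and -3.35, edgeR adjusted p = 0.0466 and 0.0232) and none higher in basal cells. Among all tested miRNAs, 3.77% were called higher in luminal cells and 0.58% in basal cells. Of the 10, 8 had fold changes below 0 and 2 above, namely miR-133a-3p (0.96) and miR-1a-3p (5.03). Basal levels were wholly below luminal levels for 6 members, where 24.3% of all tested miRNAs had that order. They were wholly above luminal levels for miR-1a-3p, where 27.2% of all tested miRNAs were. miR-143-3p and miR-145a-5p made up most of the sum. The list median was -1.10, and 0.92 when scaled to the Cali reads. Relative to the median of all tested miRNAs it stayed between -1.13 and -1.07 across the scalings, each of which shifts the list and that median nearly alike. miR-1a-3p was at 0 reads in luminal replicate 1, and no other member of the list was at 0 in any library. In reads of miR-196a-5p per 100 reads of miR-143-3p, basal libraries stood at 7.11 and 7.498 and luminal libraries at 9.57 and 7.68. This 1.35-fold range over all 4 was examined after the distances were seen, and picking the nearest profile favours a narrow range. The range was 2.04-fold for miR-148a-3p, the next nearest, which is not on this list. For other arms on the list it was 6.64-fold (miR-145a-3p) and 28.2-fold (miR-143-5p, with 1 to 36 reads per library). Per 100 reads of miR-145a-5p the values were 28.1 and 5.02 in basal against 10.5 and 2.13 in luminal libraries, and per 100 reads of fibroblast miR-214-3p they were 23.9 and 18.7 against 86.5 and 34.0. The part of such cells in the miR-196a-5p difference was not tested. In bulk samples such as these, fewer cells of a type and less RNA per cell cannot be told apart.

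**Figure D5:**
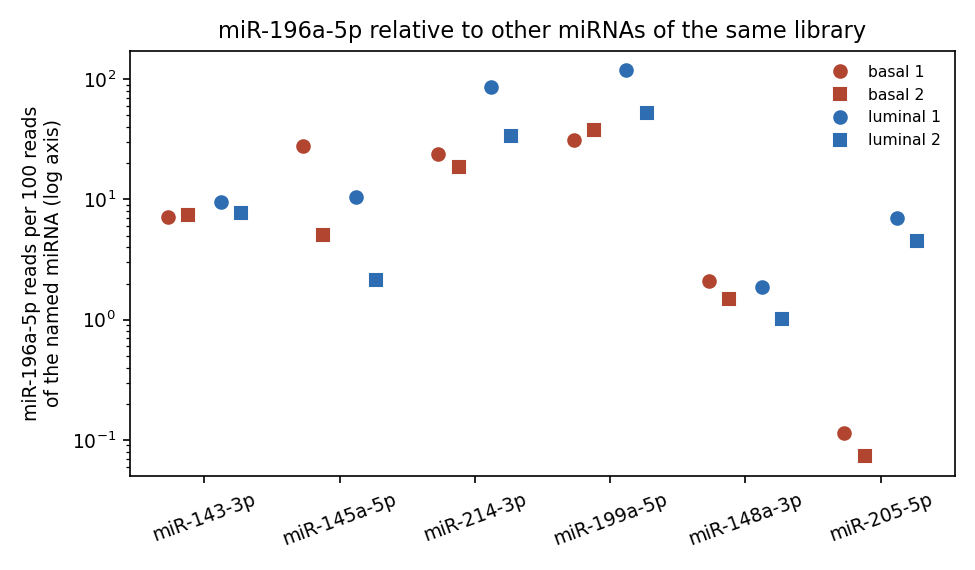
Reads of miR-196a-5p per 100 reads of miR-143-3p, miR-145a-5p, miR-214-3p, miR-199a-5p, miR-148a-3p and miR-205-5p of the same library (log axis) in the 2 basal (red) and 2 luminal (blue) libraries. The ratio to miR-143-3p stays between 7.11 and 9.57, while the ratios to the other 5 drawn spread more widely, and the widest of these 6 is the ratio to miR-205-5p.

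The endothelial list stood the other way, with 3 of its 4 miRNAs in the table and miR-126b-3p listed in no library. Its sum was 55099 and 34582 RPM in basal and 10587 and 967 RPM in luminal libraries, and neither of its 2 tested members was called. Within the basal group miR-126a-5p was lower in replicate 1 (10156 RPM) than in replicate 2 (11097 RPM), as miR-10a-3p was, while the more abundant miR-126a-3p was higher in replicate 1 (44942 RPM) than in replicate 2 (23485 RPM). The lineage-negative gate may be meant to remove such cells, though the labels do not say which lineages it covers. The part of endothelial cells in the miR-10a-3p values was not tested. The haematopoietic sum, over all 5 listed miRNAs, overlapped at 4042 and 7878 RPM in basal and 3573 and 4395 RPM in luminal libraries. Of its 5 members 4 had fold changes below 0, miR-150-5p had one above 0, none was called, and the median was -1.69. The erythroid sum, over 4 of 5, overlapped at 178 and 3406 RPM in basal and 256 and 789.7 RPM in luminal libraries, with miR-486a-5p listed in no library under that name.

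Relatives of the members outside the Hox clusters gave a point of reference. miR-99 and miR-100 descend from the same ancestral miRNA as miR-10, and miR-100-5p shares the 11-base stretch GUAGAUCCGAA with miR-10a-5p but has the seed ACCCGUA. let-7a-5p carries the miR-196 seed letters AGGUAGU 1 base further in, at bases 3 to 9. Their sequences are shown for comparison.
miR-100-5p: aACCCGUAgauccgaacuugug
let-7a-5p: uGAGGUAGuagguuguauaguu

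None of the 5 tested miR-99 and miR-100 arms and none of the 9 tested let-7 and miR-98 arms was called in edgeR. Only 0.58% of all tested miRNAs were called higher in basal cells and 3.77% in luminal cells, so the lack of a call says little about lists this short. The median log2 fold change was 0.85 for miR-99 and miR-100 and 0.65 for let-7 and miR-98, where all tested miRNAs had -0.01. Relative to the median of all tested miRNAs in each scaling, the first list stayed between 0.81 and 0.92 across the scalings and the second between 0.62 and 0.95. Each scaling shifts a list and that median nearly alike, so these ranges are no separate check. miR-99a-5p, the most abundant of the first list, was at 7156 and 5953 RPM in basal and 7397 and 6143 RPM in luminal libraries, close to miR-10a-5p in level and likewise overlapping (log2 fold change -0.05, edgeR adjusted p = 0.983). miR-99b-5p, second in basal cells, stood at 1368 and 857 RPM in basal against 612 and 619 RPM in luminal libraries, which do not overlap (log2 fold change 0.85, adjusted p = 0.472 in edgeR). miR-100-5p, second in luminal cells, stood at 699.8 and 1161 RPM in basal against 1431 and 634 RPM in luminal libraries, which overlap (log2 fold change -0.15, edgeR adjusted p = 0.941). let-7c-5p led the second list, at 41525 and 19922 RPM in basal and 15910 and 17137 RPM in luminal libraries (edgeR log2 fold change 0.89, adjusted p = 0.531). let-7b-5p came next, at 23101 and 10272 RPM in basal and 7691 and 10385 RPM in luminal libraries, which overlap (log2 fold change 0.88, edgeR adjusted p = 0.527). With a sum of at least 38886 RPM in each library, let-7 and miR-98 were well above miR-196, whose 5p sum reached 858 RPM at most.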

How the data were processed

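The values deposited by the authors are raw counts of reads per miRNA name, in a list of its own for each library, headed Reads per the file headers. The labels name the table as BLAST results. Version, database release, mismatches, trimming and treatment of reads that match more than 1 name: not given in the sources used here. Names that are no miRNA, and the unnamed closing totals, were left out. The whole table was fitted with edgeR 4.0.16 (R 4.3.3): TMM factors, filterByExpr (minimum 10 reads, total 15), a quasi-likelihood model of cell type, 2-sided, with Benjamini-Hochberg adjustment over 345 miRNAs and a threshold of 0.05. The standard error is the log2 fold change divided by the square root of F. The script was checked on simulated counts. Depth was 1501898 to 3278294 miRNA reads per library.

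Alternatives were RLE, upper-quartile, total and Cali scaling, miR-200c-3p left out, DESeq2 1.42.0, no filter, a minimum mean of 10 RPM, each library left out, a term for the replicate number, and summed copies. Wilson intervals (95%) and permutation tests used scipy 1.17.1. Floors are 3 reads per library. Named miRNAs were all members, the 5 nearest profiles (log2 RPM, prior count 2, mean at least 50 RPM), miR-205-5p, and list counts with leading members. miR-142a and miR-486b-5p were matched under the table's names miR-142 and miR-3107-5p, by RefSeq synonyms of their genes. Sequences and loci come from RefSeq and GENCODE M21 (GRCm38) and the authors' own build was not stated in the labels. The members and lists were chosen with earlier results of these data known.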

Additional observations from a re-analysis of the deposited data

How the results depend on the processing

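Members called higher in basal cells numbered 0 in edgeR and 0 to 1 without 1 library each. Those called higher in luminal cells numbered 0, but 1 in DESeq2 and 0 to 1 without 1 library each. miR-196a-5p kept its direction in all 14 alternatives, counting the fit of summed copies, which is not its value alone. Its log2 fold change was -2.53 in DESeq2, where it passed, and from -2.94 to -1.73 without 1 library. miR-10b-3p and miR-10a-3p also kept theirs in all 13 run for them, miR-10a-3p at 1.59 to 9.04 without 1 library. miR-10a-5p turned from -0.04 to 0.49 with library totals alone, 1.73 with the Cali reads, 0.22 with upper-quartile factors, 0.077 with no filter and 0.0059 with the replicate block, and ranged from -0.45 to 0.62 without 1 library. miR-10b-5p turned from 0.04 to -0.0082 in DESeq2, -0.0083 with RLE factors and -0.028 with copies summed, and ranged from -0.34 to 0.33 without 1 library. miR-196b-5p turned to -0.37 with copies summed, and miR-196a-1-3p to 0.27 with the Cali reads. The cause was not tested, except that summing replaces each copy's value by that of the sum. Where a group was left with 1 library, that library is assumed to vary like those of the other group. miR-196a-1-3p gave no value at a minimum mean of 10 RPM.

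Basal and luminal libraries share the numbers 1 and 2, but nothing says that they pair. Deviations of same-numbered libraries correlated at 0.15 across miRNAs. With the replicate block no member was called, and miR-196a-5p stood at -2.39 (edgeR adjusted p = 0.0556). Over all tested miRNAs, calls numbered 2 in basal and 13 in luminal cells, and 1 to 33 and 0 to 28 across the alternatives. The 3p arms rest on few reads, 0 to 124 per library, so their values are less certain. Whether depth accounts for the counts of 0 was not tested.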
